A study of Mus musculus with 6 samples.

Results

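The 9 genes described here encode the mouse Sonic hedgehog ligand (Shh), its receptor (Ptch1), 3 co-receptors (Gas1, Cdon and Boc), the signal transducer (Smo) and the 3 Gli transcription factors (Gli1, Gli2 and Gli3). They were chosen by name, and all 9 were found by symbol among the 33084 genes of the count table. Forebrains of mouse embryos were sampled at embryonic day 15.5 (E15.5). There were 3 heterozygous samples of a Dyrk1a line (Dyrk1a+/-, with 1 inactive copy of the kinase gene Dyrk1a) and 3 wild-type samples (wt). The labels call the 3 samples of each genotype biological replicates. They do not state which part of Dyrk1a is removed, the strain, the sex or whether litters were shared. The comparison asks how the hedgehog genes are expressed in forebrains with a single working copy of Dyrk1a.

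Hedgehog signalling patterns the ventral forebrain and sustains progenitor division. SHH binds PTCH1, helped by the co-receptors GAS1, CDON and BOC, and this frees SMO, which acts through the primary cilium on the GLI proteins. GLI1 is an activator whose gene is itself a pathway target, GLI2 is mainly an activator, and GLI3 is mainly processed to a repressor that holds back ventral fates in the dorsal telencephalon. DYRK1A has been reported, in cultured cells, to phosphorylate GLI1 and to increase its activity. RNA counts do not show protein, its phosphorylation or the cleavage of GLI3.

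Libraries held 18699434 to 25012356 counts in Dyrk1a+/- and 25270710 to 32865708 in wt. A pair of libraries, Dyrk1a+/- replicate 2 and wt replicate 3, stood apart from the other 4 on the first principal component (34% of the variance), and 3 abundant structural RNAs (7SK and the RNA parts of RNase P and RNase MRP) made up 4% and 4.46% of their counts, against 2.57% to 3.01% elsewhere. The second component (23%) set Dyrk1a+/- replicate 3 apart and also separated the genotypes. Scores on it were 3.25, -5.51 and -44.99 in Dyrk1a+/-, against 21.43, 12.43 and 13.38 in wt. Dyrk1a itself was at 148.5, 146.5 and 158.2 CPM (counts per 1000000 of the effective library size) in Dyrk1a+/- forebrains, against 176.4, 185.5 and 160.1 CPM in wt forebrains. The heterozygotes all lay below wt, at 0.868 of the wt level (95% interval 0.766 to 0.984; edgeR quasi-likelihood test, Benjamini-Hochberg adjusted p = 0.59). The counts cover the whole gene, so they check the genotype labels only weakly.

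By edgeR none of the 9 hedgehog genes reached a Benjamini-Hochberg adjusted p under 0.05, while 2 of 19403 tested genes (0.0103%) did. DESeq2 and limma-voom called none of the 9 either. At an unadjusted p under 0.05 there were 2, Gli3 and Cdon, both higher in Dyrk1a+/-, beside 7.88% of all genes tested (3.27% higher and 4.61% lower). Fitted fold changes were above 1 for 8 of the 9 genes, beside 51.2% of all genes, and Gli1 was the exception. The median log2 fold change of the 9 was 0.19, beside 0.0048 over all genes tested. The genotypes did not overlap in CPM for 3 genes, beside 14% of all genes: Gli3 and Cdon lay above wt in all 3 heterozygotes, as 6.53% of all genes did, and Gli1 lay below, as 7.49% did.

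**Figure D1:**
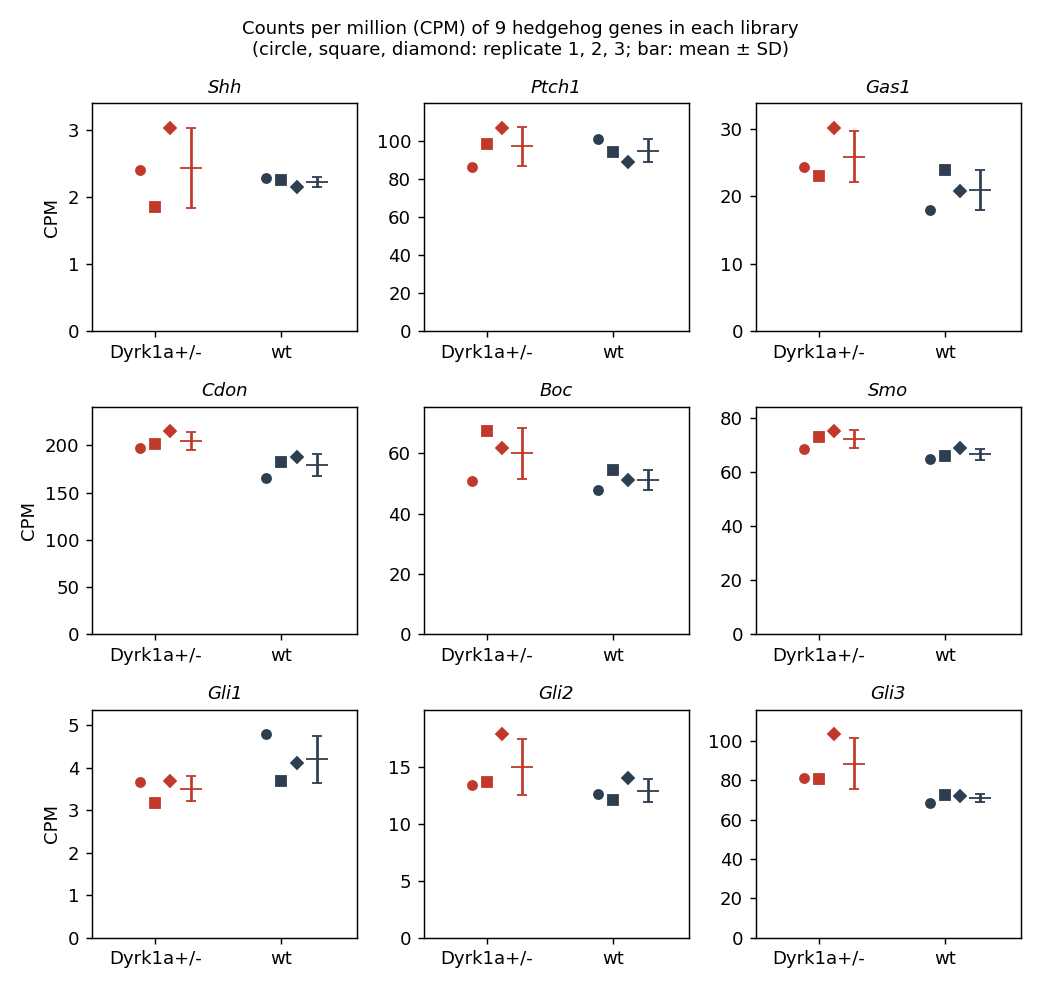
CPM of the 9 hedgehog genes in each library (vertical axes, each from 0), Dyrk1a+/- left of wt, with the mean and SD beside the points. Gli3 and Cdon are higher in all 3 heterozygotes than in any wt library, Gli1 is lower, and the other 6 genes overlap between genotypes.

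Levels per exonic kilobase put the genes in 5 tiers that kept their order within every library. On this scale (RPKM, CPM per kilobase of merged exons, mean of all 6 libraries) Cdon was the most abundant, at 24.8 RPKM with a range of 21.5 to 27.9. Boc, at 12.5 RPKM, and Smo, at 12.4 RPKM, came next and were not separated, since Boc exceeded Smo in 3 of 6 libraries. Gli3, Gas1 and Ptch1 followed at 8.33, 7.89 and 6.77 RPKM, with ranges that overlapped from each gene to the next. Gli2 stood alone below them at 2.03 RPKM (1.76 to 2.6). Shh, at 0.819 RPKM, and Gli1, at 0.771 RPKM, were lowest and overlapped with each other. Below Cdon the tiers were thus Boc with Smo, then Gli3 with Gas1 and Ptch1, then Gli2, and then Shh with Gli1. Between libraries the Boc and Gli3 ranges just overlapped. Boc was at 10.77 RPKM in wt replicate 1 and Gli3 at 10.80 RPKM in Dyrk1a+/- replicate 3. In every library of both genotypes the co-receptor and Gli3 transcripts exceeded those of Shh and Gli1 per exonic length.

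**Figure D2:**
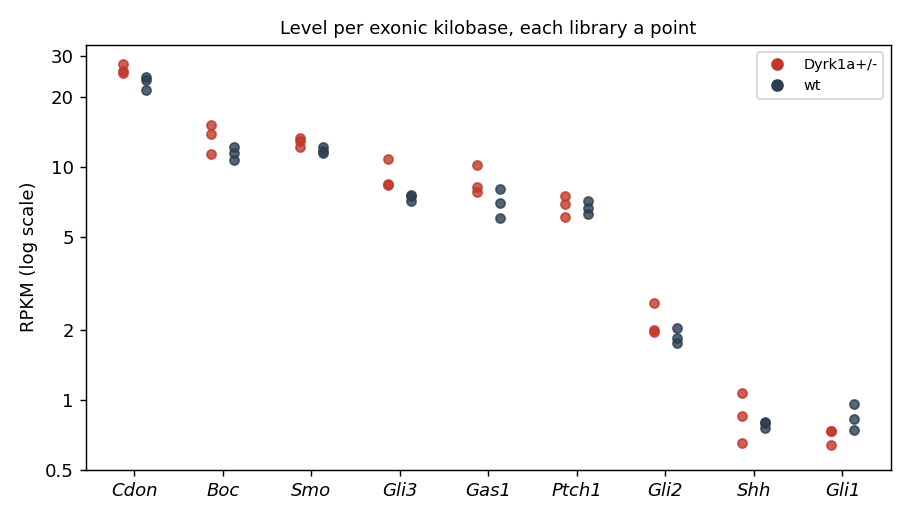
RPKM of each hedgehog gene (log scale) in the 6 libraries, ordered by the mean of all libraries, with Dyrk1a+/- points left of wt points. Cdon lies at 21.5 to 27.9 RPKM and Gli1 at 0.636 to 0.958 RPKM.

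Shh (ENSMUSG00000002633, GRCm38 chromosome 5, 28456815 to 28467256, minus strand), the secreted ligand, was thinly covered, with 50, 46 and 57 counts in Dyrk1a+/- and 75, 57 and 60 counts in wt. That came to 2.41, 1.85 and 3.04 CPM in Dyrk1a+/-, against 2.29, 2.26 and 2.15 CPM in wt. The heterozygotes held both the highest and the lowest library, and their SD of 0.594 CPM was wider than the 0.0737 CPM of wt. Its fold change was 1.08 (95% interval 0.771 to 1.52; edgeR, Benjamini-Hochberg adjusted p = 0.944). The sign depended on Dyrk1a+/- replicate 3: without it the log2 fold change was -0.073, against 0.11 with all 6 libraries. Any fold change from 0.771 to 1.52 remained compatible with these libraries, at low counts and with 3 libraries a group. Antisense transcripts 9530036O11Rik and Gm26894 share exonic bases with Shh and had 56 and 24 counts over all libraries.

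Ptch1 (ENSMUSG00000021466, chromosome 13, 63508328 to 63573598, minus strand), the receptor that restrains SMO and is also a direct target induced by the pathway, did not differ between genotypes beyond the spread of the libraries. It had 86.4, 98.5 and 107 CPM in Dyrk1a+/-, against 101.1, 94.4 and 89.1 CPM in wt. The groups covered nearly the same range, and the fold change was 1.03 (95% interval 0.886 to 1.19; edgeR, Benjamini-Hochberg adjusted p = 0.962). The log2 fold change of 0.036 turned to -0.038 without Dyrk1a+/- replicate 3, to -0.0069 without wt replicate 3 and to -0.014 in the 4 libraries outside the pair. Each library held 1791 to 3317 counts of Ptch1.

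The co-receptors all had higher means in Dyrk1a+/-. Cdon (ENSMUSG00000038119, chromosome 9, 35421128 to 35507652, plus strand), an immunoglobulin superfamily protein that binds SHH, was at 196.8, 200.9 and 215 CPM in Dyrk1a+/-, against 165.7, 182.7 and 187.8 CPM in wt. All 3 heterozygotes lay above all wt libraries, at a fold change of 1.14 (95% interval 1.01 to 1.29; edgeR, unadjusted p = 0.036, Benjamini-Hochberg adjusted p = 0.606). An exact 2-sided permutation test of log2 CPM gave p = 0.1, and no smaller p exists with 3 libraries a group. Log2 CPM of Cdon differed by 0.097 within the pair of libraries that stood apart and by 0.24 within the other 4.

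Boc (ENSMUSG00000022687, chromosome 16, 44485049 to 44558897, minus strand), the closest relative of Cdon, had 50.9, 67.4 and 61.9 CPM in Dyrk1a+/-, against 47.9, 54.4 and 51.3 CPM in wt. Dyrk1a+/- replicate 1 fell inside the wt range, so the groups overlapped. Boc came to 1.17 of the wt level (95% interval 0.99 to 1.39; adjusted p = 0.665 by edgeR), and its log2 fold change ran from 0.14 without Dyrk1a+/- replicate 2 to 0.34 without Dyrk1a+/- replicate 1. Boc lies on the same chromosome as Dyrk1a.

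Gas1 (ENSMUSG00000052957, chromosome 13, 60174405 to 60177365, minus strand), a membrane-anchored co-receptor, had 24.3, 23.1 and 30.2 CPM in Dyrk1a+/-, against 18, 23.9 and 20.8 CPM in wt. Only Dyrk1a+/- replicate 3 stood clear of the wt libraries by a wide margin, and replicate 2 lay inside the wt range. Gas1 came to 1.24 of the wt level (95% interval 0.994 to 1.54; edgeR, Benjamini-Hochberg adjusted p = 0.646). Its log2 fold change of 0.31 was 0.18 without Dyrk1a+/- replicate 3.

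Smo (ENSMUSG00000001761, chromosome 6, 29735503 to 29761365, plus strand), the membrane protein that passes the signal into the cell, varied little, with 68.7, 73.1 and 75.3 CPM in Dyrk1a+/- and 64.9, 65.9 and 69 CPM in wt. The lowest heterozygote lay just below the highest wt library. Smo came to 1.09 of the wt level (95% interval 0.972 to 1.21; edgeR, Benjamini-Hochberg adjusted p = 0.732), the narrowest interval of the 9 genes on the log2 scale.

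Gli3 (ENSMUSG00000021318, chromosome 13, 15463235 to 15730026, plus strand) had the lowest p of the 9 genes. It was at 81.4, 80.7 and 103.5 CPM in Dyrk1a+/-, against 68.6, 72.5 and 72.2 CPM in wt. The wt libraries were tight (SD 2.18 CPM) and all 3 heterozygotes lay above them, with Dyrk1a+/- replicate 3 far above its own group (SD 13 CPM). The fold change was 1.24 (95% interval 1.06 to 1.46; edgeR, unadjusted p = 0.0138, Benjamini-Hochberg adjusted p = 0.526), which ranked 505 by p among all genes tested. The exact 2-sided permutation p was 0.1, the smallest possible here. Its log2 fold change of 0.32 was 0.19 without Dyrk1a+/- replicate 3, and within the pair and the other 4 libraries log2 CPM differed by 0.16 and 0.38. Gm6556, on the opposite strand, shares exonic bases with Gli3 and had 100 counts over all libraries.

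Gli1 (ENSMUSG00000025407, chromosome 10, 127329882 to 127341974, minus strand), the Gli factor that DYRK1A is reported to act on and a standard readout of pathway output, was the only member with a lower mean in Dyrk1a+/-. Few reads covered it, with 76, 79 and 69 counts in Dyrk1a+/- and 157, 93 and 115 counts in wt. Scaled for depth this was 3.67, 3.18 and 3.68 CPM in Dyrk1a+/-, against 4.79, 3.69 and 4.12 CPM in wt. The groups did not overlap, but Dyrk1a+/- replicates 1 and 3 lay only just below wt replicate 2. The fold change was 0.832 (95% interval 0.644 to 1.08; edgeR, unadjusted p = 0.141, Benjamini-Hochberg adjusted p = 0.746), with an exact 2-sided permutation p of 0.1. The log2 fold change of -0.26 was -0.16 without wt replicate 1, and log2 CPM differed by -0.37 within the pair and -0.19 within the other 4 libraries. Arhgap9, on the opposite strand, shares 62 exonic bases with Gli1 and had 88 counts over all libraries.

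Gli2 (ENSMUSG00000048402, chromosome 1, 118834132 to 119053619, minus strand) had 13.4, 13.7 and 17.9 CPM in Dyrk1a+/-, against 12.6, 12.1 and 14 CPM in wt. The groups overlapped, and Dyrk1a+/- replicate 3 alone was well above the wt range. The fold change was 1.16 (95% interval 0.933 to 1.44; edgeR, Benjamini-Hochberg adjusted p = 0.754), while the log2 fold change of 0.21 was 0.068 without Dyrk1a+/- replicate 3.

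**Figure D3:**
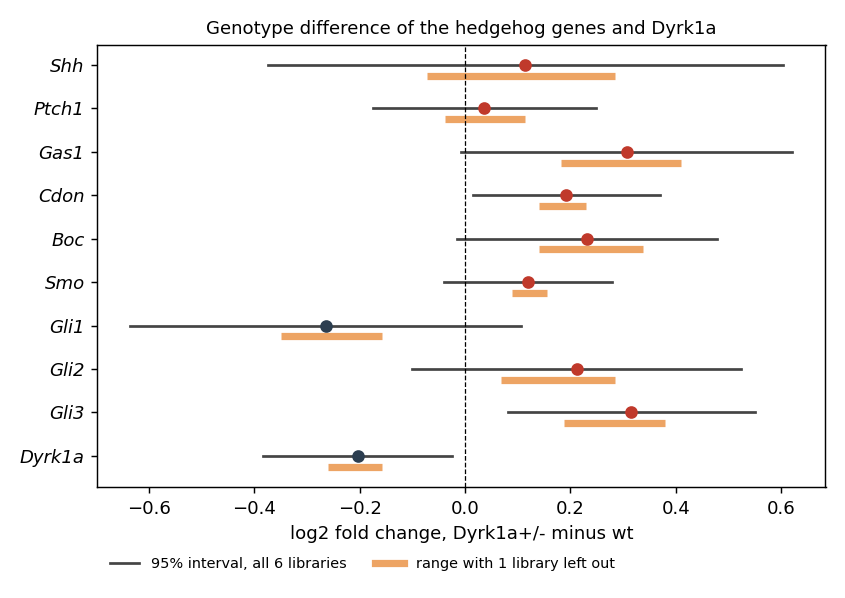
Log2 fold change of each hedgehog gene and of Dyrk1a, Dyrk1a+/- minus wt (horizontal axis), with 95% intervals in grey and the range with 1 library left out in orange. Gli3 and Cdon have intervals above 0, Dyrk1a has one below 0, and the orange bars of Shh and Ptch1 cross 0.

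Within a library the balance of Gli transcripts can be read without any scaling between libraries. Gli3 made up 76, 76.2 and 76.4% of the summed RPKM of the 3 Gli genes in Dyrk1a+/-, against 71.9, 75.2 and 72.4% in wt. Gli1 made up 6.57, 5.76 and 5.21% in Dyrk1a+/-, against 9.63, 7.33 and 7.92% in wt. Gli2 held 18 ± 0.46% in Dyrk1a+/- and 18.5 ± 1.07% in wt (SD, n = 3 each), and its share overlapped. The log2 ratio of Gli1 to Gli3 was -3.53, -3.73 and -3.87 in Dyrk1a+/-, against -2.90, -3.36 and -3.19 in wt, a mean difference of -0.56 that ran from -0.66 to -0.44 with 1 library left out. The log2 ratio of Gli1 to Gli2 was -1.41, -1.65 and -1.82 in Dyrk1a+/-, against -0.94, -1.25 and -1.31 in wt. Both ratios were lower in all 3 heterozygotes than in any wt library. These ratios were formed from genes already seen to differ in direction, so they are a description and carry no test.

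**Figure D4:**
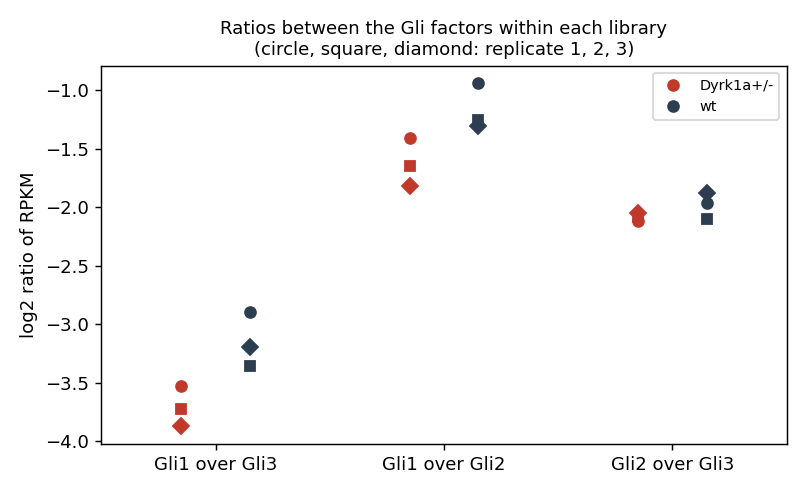
Log2 ratios of RPKM between Gli factors within each library (vertical axis), Dyrk1a+/- left of wt. Gli1 over Gli3 lies at -3.87 to -3.53 in Dyrk1a+/- and at -3.36 to -2.90 in wt, while Gli2 over Gli3 overlaps.

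The promoters of Gli2 and Gli3 are shown because they are the Gli genes matched in the promoter set and because both hold the core of the letters that Gli zinc fingers are known to bind. Windows from 250 bases before to 50 bases after the transcription start were taken from RefSeq (GRCm38.p6). The set matched Ptch1, Gas1, Cdon, Smo, Gli2 and Gli3, and not Shh, Gli1 or Boc. Capitals mark the core CCACCC or its reverse complement GGGTGG.
Gli2, chr1:119053570-119053869, minus strand: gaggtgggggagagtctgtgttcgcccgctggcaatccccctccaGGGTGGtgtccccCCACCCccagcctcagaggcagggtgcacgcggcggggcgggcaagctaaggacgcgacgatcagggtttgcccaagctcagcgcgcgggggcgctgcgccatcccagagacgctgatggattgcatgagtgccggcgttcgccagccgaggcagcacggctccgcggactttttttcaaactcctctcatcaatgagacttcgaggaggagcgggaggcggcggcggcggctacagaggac
Gli3, chr13:15463473-15463772, plus strand: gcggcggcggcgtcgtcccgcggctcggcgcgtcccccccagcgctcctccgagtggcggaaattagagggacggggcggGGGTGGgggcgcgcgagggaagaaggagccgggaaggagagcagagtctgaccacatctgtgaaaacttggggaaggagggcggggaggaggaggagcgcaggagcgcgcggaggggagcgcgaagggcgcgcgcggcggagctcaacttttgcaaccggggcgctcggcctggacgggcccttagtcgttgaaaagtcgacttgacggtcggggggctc
In Gli2 the core starts at -192 and its reverse complement at -205, and in Gli3 the reverse complement starts at -170. Smo also held the core, so 3 of the 6 windows did, beside 31.5% of all 32851 windows of this length. The longer Gli consensus GACCACCCA, which contains the core, was in 0 of the 6 windows on either strand and in 0.253% of all windows. These letters describe the windows and are not evidence of binding.

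Other genes with the closest pattern over the 6 libraries were sought among 10930 genes with a mean of at least 10 CPM, by the root-mean-square difference of log2 CPM centred on each gene's mean. For Gli1, whose own spread on this scale was 0.18, they were Itih5 (0.0521), A730017L22Rik (0.0671) and the collagen gene Col1a2 (0.0687). For Gli3, with a spread of 0.195, they were the kinase gene Nuak2 (0.0263), Rhno1 (0.0288) and Cntln (0.0422). Col1a2 is also on the list of meningeal markers described below.

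Of 55 other hedgehog pathway genes, all tested, 29 had fold changes above 1 and 26 below, with a median log2 fold change of 0.0097. None passed edgeR's test over all genes, and 0 were at an unadjusted p under 0.05, beside 7.88% of all genes; DESeq2 and limma-voom also called 0. In the 4 libraries outside the pair 6 were at an unadjusted p under 0.05, beside 12.9% of all genes in that fit. The genotypes did not overlap for 2 of the 55, a smaller share than the 14% of all genes, and both were cilium transport genes higher in Dyrk1a+/-.

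Of 7 genes for ligands, their processing and release, 1 was higher and 6 lower in Dyrk1a+/- (median log2 fold change -0.12). Ihh, which encodes Indian hedgehog, had 0.606 ± 0.17 CPM in Dyrk1a+/- and 0.838 ± 0.144 CPM in wt. Scube2, whose secreted product helps to release SHH, had 1.70 ± 0.0942 CPM in Dyrk1a+/- and 2.11 ± 0.473 CPM in wt (SD, n = 3 each). Both were thinly covered, Ihh at 8 to 31 and Scube2 at 31 to 66 counts per library. Of the other receptors and decoys, Hhip, a membrane protein that sequesters SHH and is induced by the pathway, held only 31 to 92 counts per library. That came to 1.54, 2.33 and 1.65 CPM in Dyrk1a+/-, against 2.80, 2.81 and 1.86 CPM in wt. Its groups overlapped because of Dyrk1a+/- replicate 2 and wt replicate 3, the pair that stood apart, and Hhip came to a log2 fold change of -0.43 with an SE of 0.249 (adjusted p = 0.731 by edgeR). That value rested on which libraries were used: it was -0.81 in the 4 libraries outside the pair and -0.64 without Dyrk1a+/- replicate 2, while within the pair log2 CPM differed by 0.32. Lrp2, an endocytic receptor for SHH in the ventral forebrain, had 31.8 ± 3.58 CPM in Dyrk1a+/- and 28.8 ± 1.79 CPM in wt (SD, n = 3 each).

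Among 21 cytoplasmic regulators 9 were higher and 12 lower (median log2 fold change -0.031). Those of lowest p were Prkar1a, a regulatory subunit of the protein kinase A that primes GLI3 for processing (309.3 ± 13.3 CPM in Dyrk1a+/- and 339.3 ± 29.7 CPM in wt), and Kif7, a ciliary kinesin that regulates GLI processing (17.3 ± 1.89 CPM in Dyrk1a+/- and 15.5 ± 1.11 CPM in wt; SD, n = 3 each). Of 14 cilium transport genes 10 were higher and 4 lower (median 0.045). Rab23, a small GTPase that restrains hedgehog signalling, had 37, 35.3 and 38.3 CPM in Dyrk1a+/-, against 34.6, 34.3 and 33.2 CPM in wt, and Ift88, a subunit of the intraflagellar transport complex, was the other gene without overlap, at 32.9, 31.9 and 32.4 CPM in Dyrk1a+/-, against 30.5, 31.4 and 29.0 CPM in wt. The difference in Ift88 amounted to a log2 fold change of 0.096. Ift122, a retrograde transport subunit, had 71.6 ± 5.33 CPM in Dyrk1a+/- and 64.8 ± 8.48 CPM in wt (SD, n = 3 each).

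Of 12 genes reported as Gli targets in one tissue or another, which include Hhip, 8 were higher and 4 lower in Dyrk1a+/-, with a median log2 fold change of 0.046. Besides Hhip the lowest p was that of Foxa2, a floor plate transcription factor, at 13 to 25 counts per library (0.988 ± 0.353 CPM in Dyrk1a+/- and 0.641 ± 0.311 CPM in wt; SD, n = 3 each). Ccnd1, cyclin D1, had 62.5, 65.8 and 81.5 CPM in Dyrk1a+/-, against 59.7, 60.6 and 67.7 CPM in wt. Of the targets described above, Gli1 and Hhip had lower means in Dyrk1a+/-. Ptch1, Foxa2 and Ccnd1 had higher means, and none of these genes passed the test.

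**Figure D5:**
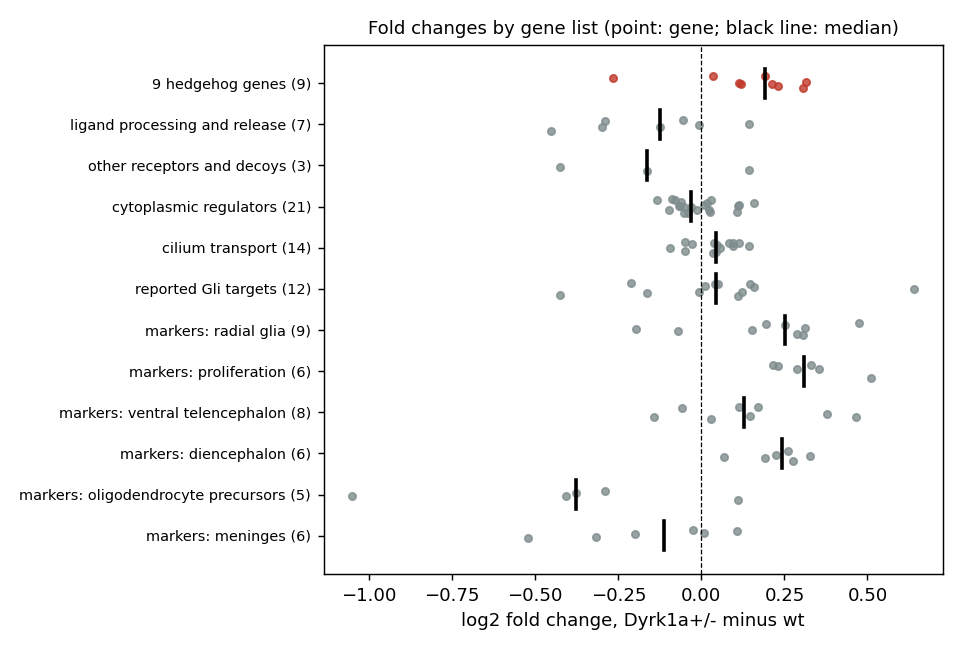
Log2 fold changes, Dyrk1a+/- minus wt (horizontal axis), of the 9 hedgehog genes, the pathway lists and marker lists of cell types, with the number of genes in brackets and the median as a black line. The median of the 9 genes is 0.19, those of the pathway lists lie between -0.16 and 0.046, and those of the radial glia and proliferation markers are 0.25 and 0.31.

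Most markers of progenitors, like the co-receptors and Gli3, had higher means in Dyrk1a+/-. In bulk RNA, more cells of a type and more RNA per cell cannot be told apart. Of 9 radial glia markers 7 were higher and 2 lower in Dyrk1a+/- (median log2 fold change 0.25), and their summed level was 1064 to 1178 CPM in Dyrk1a+/- and 1016 to 1142 CPM in wt. The most abundant, Fabp7, Vim and Nes, had log2 fold changes of -0.071, 0.19 and 0.15. All 6 proliferation markers were higher (median 0.31), with a summed level of 873.1 to 1097 CPM in Dyrk1a+/- and 690.1 to 789.2 CPM in wt, Top2a and Mki67 being the most abundant. None of these markers passed edgeR's test over all genes, and no defining marker was at 0. At an unadjusted p under 0.05 by edgeR, 5 of the 6 proliferation and 3 of the 9 radial glia markers were higher and 0 lower. Of all genes tested, 3.27% were higher and 4.61% lower at that p. Whether progenitor RNA had a part in the values of Gli3, Cdon, Gas1 and Boc was not tested.

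Markers of the ventral telencephalon, the diencephalon and the floor plate were also compared. Of 8 ventral telencephalic markers 6 were higher (median 0.13), and their sum was 202.6 to 246.2 CPM in Dyrk1a+/- and 204.8 to 224.2 CPM in wt. Of 6 diencephalic markers all 6 were higher (median 0.24; sum 144.1 to 217.6 CPM in Dyrk1a+/- and 134.3 to 164.1 CPM in wt), with Tcf7l2 and Lhx9 the most abundant. All 4 floor plate markers were higher (median 0.27; sum 14.4 to 17.8 CPM in Dyrk1a+/- and 12.7 to 14.0 CPM in wt). Lmx1a made up most of that sum, at 10.1 CPM in Dyrk1a+/- and 8.46 CPM in wt. The forebrain transcription factors Lhx2 and Six3 were both present, Lhx2 at 93.2 CPM in Dyrk1a+/- and 77.3 CPM in wt and Six3 at 6.15 CPM in Dyrk1a+/- and 6.17 CPM in wt. The part of these regions in the Shh values was not tested.

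Markers of cell types outside the progenitor zones ran lower or level. Of 5 oligodendrocyte precursor markers 4 were lower (median -0.38; sum 77.4 to 96 CPM in Dyrk1a+/- and 109.7 to 113.9 CPM in wt), and Pdgfra was the most abundant. Of 6 meningeal markers 4 were lower (median -0.11; sum 177.6 to 208.2 CPM in Dyrk1a+/- and 219.9 to 244.5 CPM in wt), with Col1a2 at 123.4 CPM in Dyrk1a+/- and 153.6 CPM in wt. Most of the difference in the meningeal sum lay in Col1a2, the most abundant. Aldh1a2 and Dcn also lay below wt in all 3 heterozygotes, with log2 fold changes of -0.52 and -0.20. In all, 3 of 6 meningeal and 3 of 5 oligodendrocyte precursor markers lay below in this way, beside 7.49% of all genes tested. Col1a1, Foxc1 and Lum had log2 fold changes of 0.0083, -0.024 and 0.11. The sums of the precursor, meningeal and neuronal markers, like Gli1, lay below wt in all 3 heterozygotes, and their part in the Gli1 values was not tested. Sums of endothelial markers were 134.5 to 158.4 CPM in Dyrk1a+/- and 140.2 to 161.1 CPM in wt. Those of microglial markers were 31.5 to 39.9 CPM in Dyrk1a+/- and 34.9 to 40.7 CPM in wt. Choroid plexus sums were 275.2 to 425.7 CPM in Dyrk1a+/- and 352.1 to 427.2 CPM in wt. Neuronal sums were 3768 to 3924 CPM in Dyrk1a+/- and 3962 to 4237 CPM in wt. Most of the neuronal sum was Tubb3 and Dcx, each of which overlapped between genotypes. The neuronal genes Neurod6, Tbr1 and Bcl11b had log2 fold changes of -0.014, 0.025 and 0.04. Over the genes of each list the median log2 fold changes were -0.0099, -0.15, 0.0065 and -0.014, in that order.

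A single library weighed on most of these comparisons. Dyrk1a+/- replicate 3 had the highest level of all 6 libraries for 7 of the 9 hedgehog genes, and of the heterozygotes for 8 of 9, Boc being the exception. The same library had the largest sum of proliferation, ventral telencephalic, diencephalic and floor plate markers, the smallest sum of oligodendrocyte precursor and choroid plexus markers, and the smallest total count. Without it 6 of the 9 hedgehog genes had fold changes above 1, with a median log2 fold change of 0.089, and 1 was at an unadjusted p under 0.05, beside 4.25% of all genes in that fit. The log2 ratio of Gli1 to Gli3, formed after the directions of both genes were seen and so only a description, differed by -0.48 without that library.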

How the data were processed

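Forebrain RNA libraries of mouse embryos at embryonic day 15.5 were compared, 3 from Dyrk1a+/- and 3 from wt, with group and replicate number taken from the sample titles. The deposited values are raw counts per Ensembl gene, 1 column per library. Per the submitters' processing notes, bcl2fastq 2.17.1.14, HISAT2, SAMtools 1.9 and HTSeq 0.9.1 were used on GRCm38/mm10. Which annotation release was counted, and whether strand was used, is not given in the sources used here. Reads of overlapping genes therefore cannot be told apart. Polyadenylated RNA and a ribosomal-depletion total-RNA kit are both named in the labels.

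Symbols, coordinates and exonic lengths came from GENCODE M21 (GRCm38), which named 32888 of 33084 identifiers and all 9 hedgehog genes. Tests used edgeR 4.0.16 in R 4.3.3 (filterByExpr, TMM factors 0.9944 to 1.0035, quasi-likelihood test with genotype as the only term) and Benjamini-Hochberg adjustment over the 19403 genes tested, at a threshold of 0.05. CPM are counts per 1000000 of the effective library size, and RPKM are CPM per kilobase of merged exons. Errors are SDs over 3 libraries. The labels do not say whether embryos shared a litter or whether RNA was pooled, so p-values measure the spread between these libraries. Chi-square per degree of freedom between any 2 libraries was 4.55 to 29.7, so no copies were found. The fit was checked on simulated data.

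The hedgehog genes and all lists were chosen with earlier results of these data known. Named were the 9 genes, Dyrk1a, the 2 genes of lowest p in each pathway list, the most abundant genes of marker lists, and the 3 genes closest in pattern to Gli1 and to Gli3. Some genes of the lists are counted but not reported here by name. Other genes named were picked after their values were seen, as were the ratios between Gli factors. Alternatives covered scaling, DESeq2 1.42.0, limma 3.58.1 (voom), filters, robust fitting, library size, a replicate block, a pair of libraries that stood apart, and leaving out each library.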

Additional observations from a re-analysis of the deposited data

How the results depend on the processing

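None of the 9 hedgehog genes and none of the 55 other pathway genes passed the adjusted threshold under any of the 17 alternatives. The lowest adjusted p over these was 0.159 for Gli3 and 0.443 for Gli1, and the number of hedgehog genes with fold changes above 1 stayed between 6 and 8. Genes called in the whole table numbered 2 with all libraries, 30 by DESeq2, 4 with no low-count filter, 6 with the pair that stood apart as a term, 6 in the 4 libraries outside it and 0 with replicate number as a block, and 0 to 5 with 1 library left out. Hedgehog genes at an unadjusted p under 0.05 numbered 2 (7.88% of all genes in that fit). There were 1 under upper-quartile factors (7.85%), 4 with no low-count filter (6.24%) and 4 with the pair term (15.7%). DESeq2 gave 3 (5.82%), robust fitting 3 (7.87%) and the 4 libraries outside the pair 3 (12.9%). With 1 library left out there were 1 to 3 (4.11% to 10.5%). Other pathway genes at that p numbered 0, with 1 under the pair term, 6 in the 4 libraries (12.9% of all genes) and 0 to 3 with 1 library left out, beside the same shares of all genes for the other fits. Directions were reversed for Ptch1 (-0.014 in the 4 libraries, -0.038 to 0.11 with 1 library left out) and Shh (-0.073 to 0.29). The causes were not tested.

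With the replicate block 1 hedgehog gene was at an unadjusted p under 0.05, beside 5.72% of all genes. Deviations of libraries with the same number correlated at 0.191, -0.317 and -0.145, and not every library correlated best with its own number, so the numbers were not taken to pair the libraries. Depth limits Shh and Gli1 most, at 46 to 75 and 69 to 157 counts per library.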
